A study of Saccharomyces cerevisiae with 4 samples.

Results

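The genes described here are 31 genes of sterol and fatty acid synthesis in the budding yeast Saccharomyces cerevisiae, out of 5656 genes that had at least 1 array probe set annotated to them alone. They were chosen by name, from their place in the pathway; the rule uses no measured value, but it was written with earlier results of these data known. Each gene was read on its probe set of highest mean signal. Of the 31 genes, 29 passed the filter on low signals and were tested, namely 8 of the mevalonate steps, 15 of the late sterol steps, 2 of 4 regulators and esterification enzymes, and 4 of the fatty acid steps.

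RNA came from 4 cultures at 0 h. In the wild type (2 cultures) histone H3 is unaltered. The mutant (2 cultures) holds an H3 with arginine in place of lysines 4, 36 and 79 (H3 K4,36,79R), where Set1, Set2 and Dot1 place methyl groups. Every culture was taken at mid-log phase from selective medium with galactose. Per the series' design text, the copy of wild-type H3 is shut off only by a later move to glucose. At 0 h the mutant cultures had not yet been moved, so that copy had not been shut off. The labels name no strain background, mating type or plasmid. The comparison asks whether transcripts of these pathways already differed between the strains in galactose.

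Ergosterol is the main sterol of yeast membranes. The mevalonate pathway builds isoprenoid units from acetyl-CoA and joins them to farnesyl pyrophosphate, and the late steps turn this into squalene, lanosterol and finally ergosterol in reactions that use oxygen and heme. The transcription factors Upc2 and Ecm22 bind sterol response elements before many ERG genes and raise their transcription when sterols run short. Fatty acid synthesis draws on the same acetyl-CoA through acetyl-CoA carboxylase and the fatty acid synthase complex, and the desaturase Ole1 adds the double bond that keeps membranes fluid.

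Growth in galactose was visible in the high signals of GAL1, the galactokinase gene, at 1367 and 1407 in wild-type cultures and 1150 and 1250 in mutant cultures. Signals given here are the deposited ones after the medians of the 4 arrays had been made equal. URA3, a gene of uracil synthesis and a common selection marker, stood at 13.1 and 14.4 in wild-type cultures and 645 and 637 in mutant cultures. Whether URA3 differs as a marker of the strains or in its transcription was not tested. Of 4576 genes tested with limma, 2 passed an adjusted p of 0.05, which is 0.0437%. Wild-type cultures were less alike than mutant cultures, with an SD over genes of 0.43 against 0.27 for the log2 difference within a pair.

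No gene of sterol or fatty acid synthesis passed the test. Of 29 tested members 0 were called by limma at an adjusted p under 0.05, with adjusted p-values from 0.612 to 0.999. At an unadjusted p under 0.05 the count was also 0, against 8.52% of all tested genes. This count was 1 without centring of the arrays, against 9.27% of all genes. With the replicate number as a block it was also 1, against 10.5%. Differences, mutant minus wild type on the log2(signal + 2) scale, ran from -0.43 for ERG7 to 0.34 for ERG13 and FAS1, with SE from 0.16 to 0.30. The 95% intervals of all 29 members lay within a 2-fold change in either direction, from -0.88 at the lowest end to 0.90 at the highest, against 87.7% of all tested genes. Each interval describes a single gene, whereas the test adjusts over all tested genes. With 2 arrays per group, a change as large as these intervals allow could therefore also go uncalled.

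The median difference over the members was -0.09, against -0.0087 over all tested genes. Of the 29 members 20 were lower in the mutant, or 69.0%, against 51.6% of all genes and 59.4% of the brightest 25% of genes, where 22 of the 29 lie. The count of lower members was 15 without wild-type replicate 2, where 48.3% of all genes were lower. With any other array left out the count was 16 to 18. For 11 members the arrays of the strains did not overlap, with the mutant above in 4 and below in 7. Over all tested genes such groups without overlap made up 39.4%, with 21.0% above and 18.5% below. The 4 above were ERG13, HMG2, ERG20 and ERG4, and the 7 below were HMG1, ERG8, ERG7, ERG28, ERG6, ECM22 and OLE1. In 22 of 29 members the wild-type replicates lay further apart than the means of the strains, against 64.5% of all genes.

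**Figure D1:**
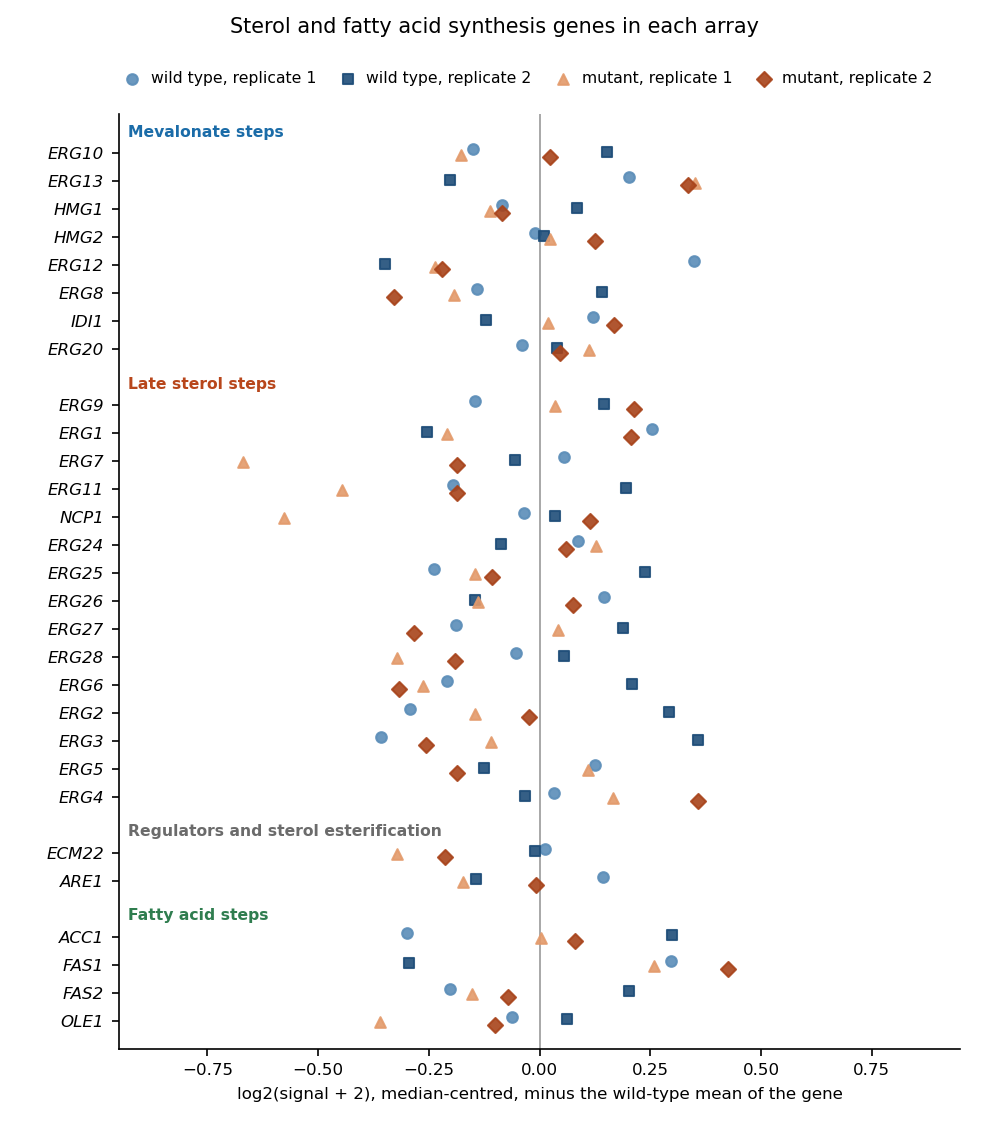
Each point is 1 array; the horizontal axis gives the median-centred log2(signal + 2) minus the wild-type mean of that gene, and rows follow the order of the pathway. The circles and squares (wild type) overlap the triangles and diamonds (mutant) in 18 of 29 genes, and wild-type replicate 2 is the highest array in 13.

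Of the 8 mevalonate genes 4 were higher and 4 lower in the mutant, with a median difference of -0.00085. For 5 of the 8 the groups did not overlap, with the mutant above in 3 and below in 2, against 39.4% of all tested genes. ERG10 encodes the acetoacetyl-CoA thiolase that opens the pathway. Its signals were 739 and 912 in wild-type cultures and 726 and 835 in mutant cultures, and the groups overlapped at a difference of -0.08 (SE 0.21). ERG13, which encodes HMG-CoA synthase, was read at 641 and 484 in wild-type cultures and 711 and 703 in mutant cultures. Both mutant values lay above both wild-type values, which were themselves 0.41 apart on the log2 scale. The difference of ERG13 was 0.34 (SE 0.20, 95% interval -0.12 to 0.81, limma adjusted p = 0.685), level with FAS1 as the highest of the members. It was 0.14 if wild-type replicate 2 was left out and 0.55 if replicate 1 was.

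HMG1 and HMG2 encode the isozymes of HMG-CoA reductase, the main control point of the pathway. HMG1 signals were 625 and 702 in wild-type cultures and 613 and 624 in mutant cultures. Those of HMG2 were 130 and 132 in wild-type cultures and 133 and 143 in mutant cultures. The fitted differences were -0.10 (SE 0.18) for HMG1 and 0.07 (SE 0.16) for HMG2 with 95% intervals from -0.51 to 0.31 and from -0.29 to 0.44. In both genes the nearest wild-type and mutant arrays were almost equal, so the separation of the groups was smaller than the SE.

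The kinases that follow had negative fitted differences, and neither passed the test. Only for ERG8 were the groups separate. ERG8, the phosphomevalonate kinase gene, was read at 339 and 413 in wild-type cultures and 327 and 297 in mutant cultures, a difference of -0.26 (SE 0.17, limma adjusted p = 0.721) that was -0.12 without wild-type replicate 2. ERG12, the mevalonate kinase gene, was read at 130 and 79.3 in wild-type cultures and 85.9 and 86.9 in mutant cultures. The mutant cultures of ERG12 were alike and lay between the wild-type cultures, so its difference of -0.23 (SE 0.24) came from wild-type replicate 1, and without that array it was 0.12. IDI1 (isopentenyl diphosphate isomerase) and ERG20 (farnesyl pyrophosphate synthase) close this part of the pathway. IDI1 was read at 338 and 285 against 315 and 349, and ERG20 at 889 and 940 against 987 and 944. Their differences were 0.09 (SE 0.17) and 0.08 (SE 0.19).

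Of the 15 late sterol genes 12 were lower in the mutant and 3 were higher, with a median of -0.12, and 0 passed the test. Without wild-type replicate 2 the count of lower genes was 8 and the median -0.08. Without wild-type replicate 1 the count was 10 and the median -0.31. For 4 of the 15 the groups did not overlap, against 39.4% of all tested genes. ERG9 encodes squalene synthase, the first step committed to sterols, and was read at 405 and 496 in wild-type cultures and 459 and 519 in mutant cultures. ERG1, the squalene epoxidase gene, was read at 381 and 267 in wild-type cultures and 275 and 368 in mutant cultures. Each ERG1 group spanned almost the same range, and the difference was -0.0020 (SE 0.22).

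ERG7 encodes lanosterol synthase, which closes the sterol rings, and had the lowest difference of the members. Its signals were 220 and 204 in wild-type cultures and 132 and 186 in mutant cultures. Both mutant arrays lay below both wild-type arrays, and mutant replicate 1 lay furthest away. The difference of ERG7 was -0.43 (SE 0.19, 0.743-fold, 95% interval -0.88 to 0.03, unadjusted p = 0.0609, limma adjusted p = 0.612). Without mutant replicate 1 it was -0.19, and without mutant replicate 2 it was -0.67.

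ERG11 encodes the lanosterol demethylase targeted by azole antifungals, and NCP1 the reductase that passes electrons to it. ERG11 was read at 942 and 1236 in wild-type cultures and 792 and 949 in mutant cultures, a difference of -0.32 (SE 0.23) that was -0.12 if wild-type replicate 2 was left out and -0.51 if replicate 1 was. NCP1 was read at 480 and 504 in wild-type cultures and 329 and 532 in mutant cultures. Mutant replicate 1 was the lowest array for ERG7, ERG11 and NCP1 alike. The mutant replicates of NCP1 were 0.69 apart on the log2 scale, so its difference of -0.23 (SE 0.24) rested on mutant replicate 1, and without that array it was 0.11. ERG24, the sterol reductase that acts next, was read at 163 and 144 against 167 and 160, a difference of 0.09 (SE 0.16).

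Erg25, Erg26 and Erg27 remove the methyl groups at carbon 4 of the sterol, held together by the scaffold protein Erg28. ERG28 was the member of this complex with separate groups, at 330 and 356 in wild-type cultures and 274 and 300 in mutant cultures. Its replicates were close in both strains, and the difference was -0.26 (SE 0.16, limma adjusted p = 0.698). The enzyme genes overlapped between the strains. ERG25 was read at 962 and 1340 against 1026 and 1053, with wild-type replicate 2 alone high. ERG26 was read at 176 and 143 against 144 and 167, and ERG27 at 404 and 525 against 474 and 378. Their differences were -0.13 (SE 0.24), -0.03 (SE 0.18) and -0.12 (SE 0.20).

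The last reactions are those of Erg6, Erg2, Erg3, Erg5 and Erg4. ERG6, the sterol methyltransferase gene, was read at 684 and 914 in wild-type cultures and 658 and 634 in mutant cultures, a difference of -0.29 (SE 0.21, limma adjusted p = 0.732). Without wild-type replicate 2 the ERG6 difference was -0.08, and without wild-type replicate 1 it was -0.50. The isomerase gene ERG2 was read at 1095 and 1645 against 1214 and 1320. The desaturase gene ERG3 was read at 748 and 1230 against 888 and 803. In ERG2 and ERG3 the mutant values lay between the wild-type values, which were 0.59 and 0.72 apart on the log2 scale, and the differences of -0.08 and -0.18 took the opposite sign without wild-type replicate 2.

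ERG5, the gene of the second desaturase, was read at 313 and 263 in wild-type cultures and 310 and 252 in mutant cultures, with groups that overlapped and a difference of -0.04 (SE 0.18). ERG4 encodes the reductase of the final step to ergosterol, and was read at 514 and 491 in wild-type cultures and 564 and 644 in mutant cultures. It was the late gene with both mutant arrays above both wild-type arrays, at a difference of 0.26 (SE 0.17, 95% interval -0.14 to 0.66, limma adjusted p = 0.723). ERG4 stayed above 0 in all 14 alternative settings, from 0.16 to 0.36, which for the fits without an array follows from its separate groups.

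**Figure D2:**
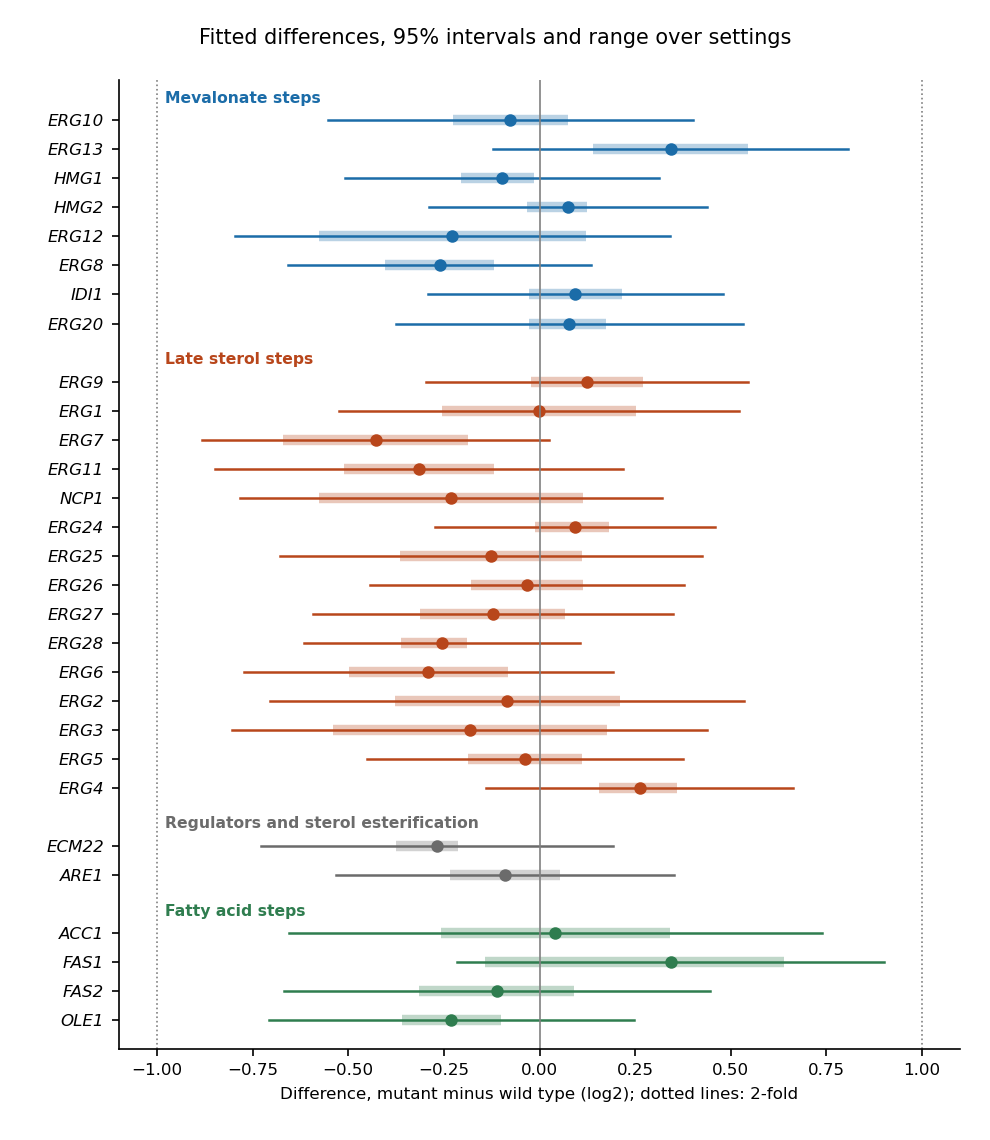
Points are fitted differences, mutant minus wild type on the log2 scale; thin lines are 95% limma intervals, and pale bars span the values over 14 alternative settings, arrays left out included. Every interval crosses 0 and lies within the dotted 2-fold lines, with ERG7 lowest at -0.43 and ERG13 and FAS1 highest at 0.34.

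Among the regulators, ECM22 was read at 51.4 and 50.6 in wild-type cultures and 40.4 and 43.7 in mutant cultures. Both wild-type values lay above both mutant values, at a difference of -0.27 (SE 0.20, limma adjusted p = 0.742). ECM22 was below 0 in every setting that kept it, from -0.37 to -0.21, which for the fits without an array follows from its separate groups. Its paralogue UPC2 was below the filter, with signals of 19.5 and 10.8 in wild-type cultures and 11.3 and 14.5 in mutant cultures, near the background of the arrays, and was not tested. ARE1 and ARE2 encode the acyltransferases that store sterol as steryl esters. ARE1 was read at 101 and 82.0 against 80.3 and 90.3, a difference of -0.09 (SE 0.19). ARE2 was also below the filter, at 21.3 and 9.76 against 18.6 and 16.4.

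On the brightest probe sets the fatty acid genes split evenly, with 2 higher, 2 lower and a median of -0.04. With the mean of the probe sets of each gene, 3 were lower and 1 higher, with a median of -0.13. ACC1, which encodes acetyl-CoA carboxylase, the enzyme that commits acetyl-CoA to fatty acids, was read at 1558 and 2362 in wild-type cultures and 1923 and 2027 in mutant cultures. The mutant values lay between the wild-type values, and the difference was 0.04 (SE 0.30). OLE1, the fatty acid desaturase gene, was read at 955 and 1040 in wild-type cultures and 776 and 929 in mutant cultures. OLE1 was the fatty acid gene with separate groups, all mutant values lower, at a difference of -0.23 (SE 0.21, limma adjusted p = 0.802) that was -0.10 without mutant replicate 1.

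FAS1 and FAS2 encode the beta and alpha subunits of cytosolic fatty acid synthase. FAS1 was read at 848 and 562 in wild-type cultures and 826 and 928 in mutant cultures, a difference of 0.34 (SE 0.24, limma adjusted p = 0.730). Without wild-type replicate 2 the FAS1 difference was 0.05, and without wild-type replicate 1 it was 0.64. FAS2 was read at 1137 and 1506 against 1178 and 1244, a difference of -0.11 (SE 0.24). In both genes wild-type replicate 2 stood apart from the other 3 arrays, low for FAS1 and high for FAS2. The main probe sets of the subunits thus put the arrays in different orders.

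FAS1, FAS2 and ERG12 were the members with several probe sets, and these disagreed. FAS1 had 8, all past the filter, with differences from -0.48 to 0.34, a median of -0.19 and 6 of 8 below 0. The brightest, 2970_s_at, gave the 0.34 used above, whereas the next brightest, 10781_at, gave -0.04 from signals of 645 and 695 in wild-type cultures and 650 and 650 in mutant cultures. With the mean of all probe sets FAS1 was at -0.14. Mutant replicate 1 was the lowest array on 6 of these 8 probe sets.

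FAS2 had 6 of 8 probe sets past the filter, with differences from -0.40 to 0.08. On the dim probe set 2604_s_at the FAS2 signals were 65.0 and 52.7 in wild-type cultures and 30.9 and 65.1 in mutant cultures, a gap of 1.03 between the mutant replicates on the log2 scale. On the bright 7973_at that gap was 0.08. ERG12 had 3 of 4 probe sets past the filter, at differences from -0.36 to 0.15. On each of these 3 wild-type replicate 1 was the highest array. FAS1 probe sets ranged from -0.48 to 0.34, a span as wide as that of the 29 members, -0.43 to 0.34. The probe sets of FAS2 and ERG12 spanned less. Part of the probe sets carry the suffixes _s_ or _g_, and where each lies along its transcript was not used here.

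**Figure D3:**
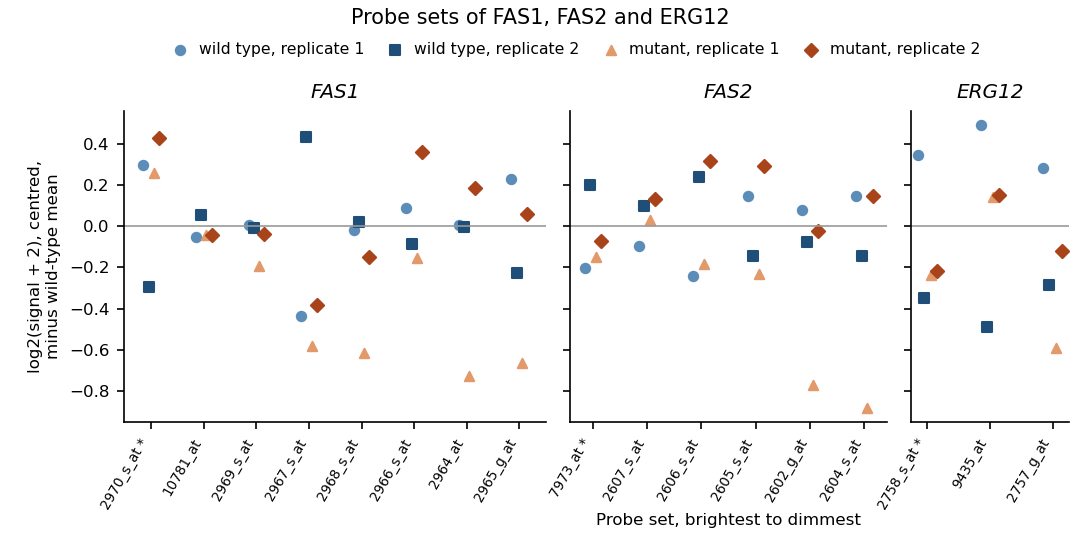
Points are single arrays, on the median-centred log2(signal + 2) scale minus the wild-type mean of the probe set, for the probe sets of FAS1, FAS2 and ERG12 that passed the filter, brightest to dimmest; an asterisk marks the one used. Mutant replicate 1 (triangles) lies lowest on 6 of 8 FAS1 probe sets and furthest down on the dim FAS2 ones.

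Replicate differences are set here beside strain differences. The former are between single arrays and the latter between means of 2 arrays, which vary less, so the sizes are not like for like. The median size of the difference between wild-type replicates was 0.29 over the members, that between mutant replicates 0.15, and that between the strains 0.12. Over all tested genes the same values were 0.28, 0.14 and 0.17. Wild-type replicate 2 was the highest of the 4 arrays for 7 of the 15 late sterol genes, ERG11, ERG25, ERG27, ERG28, ERG6, ERG2 and ERG3, and for ACC1, FAS2 and OLE1. For ERG1, ERG7, ERG26 and ERG5 the highest array was wild-type replicate 1.

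Members were read on bright probe sets, 22 of 29 of them in the brightest 25% of tested genes. Of the 29 members 17, or 58.6%, were higher in wild-type replicate 2 than in replicate 1, against 53.8% of all tested genes and 858 of the 1144 genes in that brightest class. Wild-type replicate 2 lay above replicate 1 by a median of 0.08 over the members, 0.23 over the brightest class and 0.04 over all tested genes. The median strain difference of the brightest class was -0.04. With cyclic loess or quantile normalisation, which act on differences that vary with brightness, the median of the late sterol genes was -0.07 and -0.04. The count of lower late sterol genes was then 11 and 12 of 15, against 12 in the fit used above. Of all tested genes 52.1% and 51.1% were lower in these settings. Whether brightness bears on the late sterol values was not tested. With no centring all genes shifted by a median of -0.11, and HMG2, IDI1, ERG20, ERG24 and ACC1 then took a value below 0. The sign was the same in every setting run, arrays left out included, for 10 members. Of these, 8 were lower (HMG1, ERG8, ERG7, ERG11, ERG28, ERG6, ECM22, OLE1) and 2 higher (ERG13, ERG4). Their size moved as given above, and HMG1 came to -0.01 without wild-type replicate 2. All but ERG11 have groups that do not overlap, and leaving out 1 array cannot turn the sign of such a gene. The same count over all tested genes was not taken.

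**Figure D4:**
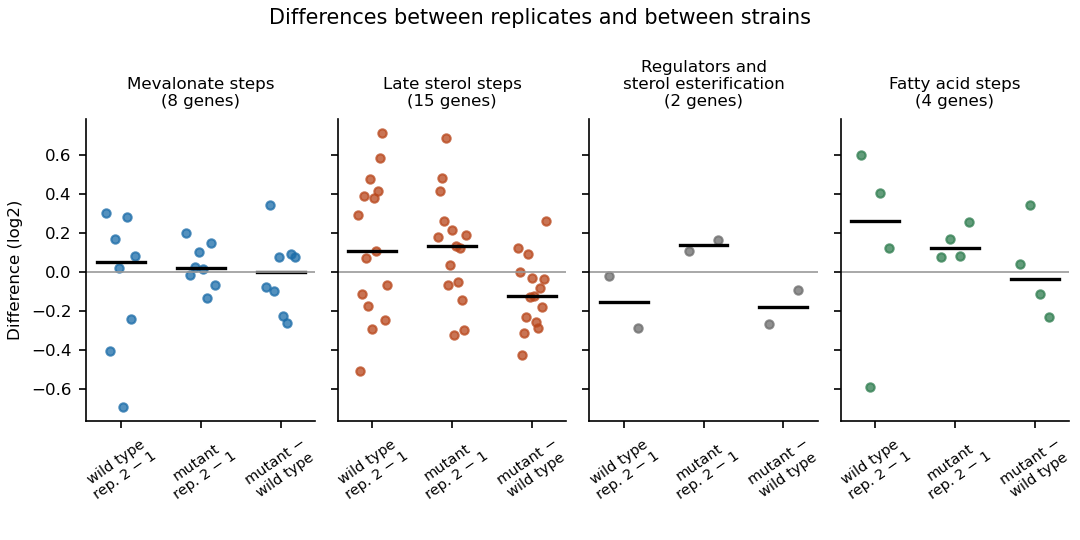
Each point is 1 gene, and the bar is the median of its group; the vertical axis gives the log2 difference between wild-type replicates, between mutant replicates and between the strain means. In the late sterol genes the differences between single wild-type arrays spread further than those between the strain means, whose median is -0.12.

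Beyond the members, 6 further lists of pathway genes chosen by function held 84 genes, of which 74 were tested with limma and 0 passed. At an unadjusted p under 0.05 there were 6 of the 74, 1 higher and 5 lower, or 8.11% against 8.52% of all tested genes, and 1 of the 5 was HAP1, whose probe sets disagree. Mevalonate decarboxylase and the branches that use isoprenoids had 6 of 8 genes lower, with a median of -0.20. RAM2 and RAM1, which encode the subunits of protein farnesyltransferase, were lowest at -0.50 and -0.37. The highest were COQ1, of coenzyme Q synthesis, at 0.37 and NUS1, of dolichol synthesis, at 0.34. MVD1, the decarboxylase itself, was at -0.31 (SE 0.26).

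Genes that regulate sterol enzymes or their turnover had 9 of 11 lower, or 8 of 11 with HAP1 counted on the other side, against 51.6% of all tested genes. Among the 9, SSM4 and DAP1 were almost level between the strains, at -0.0053 and -0.0054. The count was not taken with an array left out. Their median was -0.10. NSG1 and NSG2, homologues of mammalian Insig, which acts on the stability of HMG-CoA reductase, stood at -0.37 and 0.29. The ubiquitin ligase subunit gene HRD3 was at 0.18. HAP1, the heme-responsive activator gene, was at -0.66 on its brightest probe set (SE 0.21, unadjusted p = 0.0145, limma adjusted p = 0.457). That probe set and a second at -0.55 carry the suffix _f_, which marks sequence shared within a family, whereas 10058_at, without a suffix, gave 0.25, so the direction of HAP1 is not settled.

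Genes of sterol ester turnover and transport had 8 of 14 lower. The sterol acetylation genes SAY1, a deacetylase gene, and ATF2, an acetyltransferase gene, were lowest at -0.33 and -0.59. The steryl ester hydrolase gene TGL1 was highest at 0.44, followed by the sterol importer gene PDR11 at 0.23. Among genes of fatty acid activation, elongation and OLE1 control, 8 of 17 were lower. IFA38 and PHS1, which encode the reductase and the dehydratase of very long chain fatty acid elongation, were highest at 0.42 and 0.28. IFA38 was read at 318 and 353 in wild-type cultures and 446 and 448 in mutant cultures, apart in every array (unadjusted p = 0.0312, limma adjusted p = 0.547). The lowest were FAA4, of fatty acid activation, at -0.53 and ACB1, the acyl-CoA binding protein gene, at -0.51.

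In mitochondrial fatty acid synthesis 4 of 7 genes were lower, with HTD2 (-0.42) and CEM1 (-0.34) lowest and HFA1 and ETR1 (0.30 each) highest. HFA1 encodes the mitochondrial counterpart of Acc1. Of 17 tested genes of heme synthesis and oxygen response 8 were lower. HEM13, the coproporphyrinogen oxidase gene that is induced when oxygen or heme is low, was lowest at -0.53 (SE 0.24), next to ANB1 at -0.40, another gene of low oxygen. CYC7 and TIR2, which are also raised at low oxygen, stood at 0.32 and 0.43. The oxygen-regulated genes thus pointed in both directions, and none of these values passed the test.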

How the data were processed

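RNA of 4 cultures was read on 1 array each. The authors deposited linear intensities, 1 for each probe set, from MAS5 per the submitters' processing notes, with no version or scaling target stated. Mutant columns are whole multiples of 0.0839 and 0.0960 where wild-type columns are in steps of 0.1, so each mutant array appears multiplied by 1 further factor, which centring removes up to the pseudocount. Groups and replicate numbers came from the titles, and the design text speaks of replicate cultures.

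Of 9335 probe sets 6504 had 1 gene in the platform annotation, and each of these was found by gene ID in RefSeq's table (assembly R64). The lowest 25% by mean signal were left out, 2 was added, log2 taken and each array centred on the median of the 4576 tested genes. The strains were set against each other in limma 3.58.1 under R 4.3.3 (lmFit, then eBayes with trend; degrees of freedom 2 residual, 5.63 prior), two-sided, with Benjamini-Hochberg adjustment over all tested genes, and the script was tested on simulated data. With 2 arrays a group, their number limits the precision. The members, lists and settings were chosen with earlier results of these data known. All members were named, and of each further list the 2 highest and 2 lowest genes. MVD1 was also named for its place in the pathway, and SSM4 and DAP1 for standing almost level between the strains. These additions were chosen after their values were seen. A planned search of promoters for motifs was not run, as no sequence was used here. Tables and figures were made in Python 3.11.15 (matplotlib 3.10.9, numpy 2.4.6, pandas 2.3.3).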

Additional observations from a re-analysis of the deposited data

How the results depend on the processing

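Of 10 alternative settings and 4 fits without an array, 0 gave a member past the threshold, and the lowest adjusted p of a member in any of them was 0.0871. No array pairing is given by the labels, and the same-numbered arrays did not deviate together (r = 0.04 across genes), so the replicate numbers were taken as names; with a replicate block 0 members and 32 genes in all passed. Over all genes 2 passed in the setting reported, 11 without centring, 9 with quantile normalisation, 8 with cyclic loess, 7 with the lowest 50% left out, 9 with the mean of probe sets, 1 without an intensity trend, and 1 to 21 without an array. A fit without an array has 1 residual degree of freedom and assumes that the array left alone varies as the other group does.

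Without centring the median was -0.20 over all members, -0.11 for mevalonate steps and -0.29 for regulators and esterification; with quantile normalisation it was 0.040 for mevalonate steps. Without an array the medians ran from -0.23 to -0.015 over all members, -0.046 to 0.051 for mevalonate steps, -0.31 to -0.081 for late sterol steps, -0.26 to -0.10 for regulators and esterification and -0.28 to 0.069 for fatty acid steps. The cause was not tested.

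Signs of small differences turned without centring for HMG2 (-0.032), IDI1 (-0.012), ERG20 (-0.028), ERG24 (-0.012) and ACC1 (-0.064), with cyclic loess for ERG1 (0.0055), with quantile normalisation for ERG10 (0.00061) and with the mean of probe sets for FAS1 (-0.14). Without an array these members took either sign: ERG10 (-0.23 to 0.075), ERG12 (-0.58 to 0.12), IDI1 (-0.028 to 0.22), ERG9 (-0.022 to 0.27), ERG1 (-0.26 to 0.25), NCP1 (-0.58 to 0.11), ERG25 (-0.37 to 0.11), ERG26 (-0.18 to 0.11), ERG27 (-0.31 to 0.068), ERG2 (-0.38 to 0.21), ERG3 (-0.54 to 0.18), ERG5 (-0.19 to 0.11), ARE1 (-0.24 to 0.053), ACC1 (-0.26 to 0.34) and FAS2 (-0.31 to 0.091).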
